A study of Mus musculus with 16 samples.

Results

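Cholesterol and fatty acids are made from acetyl-CoA by a chain of enzymes whose genes are controlled together. Transcripts of 35 such genes were followed in the cecal epithelium of germ-free and colonized mice: 5 regulators, 7 enzymes that lead from acetyl-CoA to farnesyl diphosphate, 11 enzymes that make squalene and sterols, 1 sterol carrier, 3 enzymes that supply acetyl-CoA or acetoacetyl-CoA, 2 enzymes of fatty acid synthesis, and 6 elongases and desaturases. The genes were chosen by name, with earlier results of these data known. Every probe set annotated to one of them on the Mouse 430 2.0 GeneChip was taken. Of the 35 genes, 34 had at least 1 such probe set, and Acat2 was not analysed here. Together they had 80 of the 45037 probe sets that are not controls. Probe sets entered the tests if in some colonization state the 2 GeneChips were both above 583.1, the median of all values of the table. That filter kept 66 of the 80 probe sets, with at least 1 for each of the 34 genes, and 24865 probe sets of the whole table.

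Measured above the median on all 8 GeneChips were 41 of the 80 probe sets, which belonged to 28 of the 34 genes. The 6 genes without such a probe set were Srebf2, Mvk, Mvd, Fdps, Fads1 and Fads2, each of which dropped below the median on at least 1 GeneChip with every probe set. For a gene with several tested probe sets, values are those of the brightest one (highest mean log2 signal over the 8 GeneChips) unless stated otherwise.

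The epithelium came from male NMRI mice, an inbred strain reared germ-free, which were adult and fed a polysaccharide-rich chow. Germ-free mice (GF) received no bacteria. Mice that were 7 weeks old received by gavage, on 1 occasion, Bacteroides thetaiotaomicron (Bt), Bifidobacterium longum (Bl) or both species (Bt/Bl), and were killed 10 days later. B. thetaiotaomicron is a gut bacterium that degrades complex polysaccharides, and B. longum is a bifidobacterium found in the infant gut. Epithelial cells were cut from frozen cecal sections with a laser, RNA of 4 mice per state was pooled in equal amounts, and each pool was amplified independently for each of its 2 GeneChips. The spread between the 2 GeneChips of a state is therefore that of amplification and hybridization, and each test compares 1 pool with another, not mice with mice. No fold change below carries the variation between animals. GF was measured on GeneChips 9128 and 9129, Bt on 9130 and 9443, Bl on 9134 and 9135, and Bt/Bl on 9132 and 9133, and values are given in that order.

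The regulators act through the sterol regulatory element-binding proteins (SREBPs), membrane-bound transcription factors of the endoplasmic reticulum. Scap carries them to the Golgi apparatus, where proteases release the part that enters the nucleus, and the Insig proteins hold Scap back when sterols are plentiful. The freed SREBPs bind sterol regulatory elements beside boxes for NF-Y and Sp1 and raise transcription of the synthetic enzymes, and also of Insig1, so that the pathway responds to the sterol content of the cell. The intestinal epithelium is known as a major site of cholesterol synthesis outside the liver.

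Promoter sequence bears on this shared control. Windows reaching from 250 bases before the start of the gene to 50 bases after it were given for 28 of the 35 genes and for 17492 genes in all (RefSeq, GRCm38.p6). Some genes had several windows, and a match in any of them counted for the gene. Matches were searched on both strands. The NF-Y box CCAAT occurred in the windows of 22 of the 28 genes (78.6%) and of 42.3% of all genes. For the Sp1 box GGGCGG the shares were 78.6% (22 genes) and 49.2%. The E-box CACGTG was present for 6 of the 28 genes (21.4%), against 8.91% of all genes. A sterol regulatory element of the form TCACNCCAC was found among the 28 genes only for Hmgcs1 (3.57%, against 1.41% of all genes). No motif contains another. A match describes the letters of a window and is not a measured binding site.

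The 250 bases before the start are printed for 4 genes, 5′ to 3′ on the strand of the gene, with NF-Y boxes on either strand (CCAAT or ATTGG) and the sterol regulatory element in capitals. Hmgcs1 (chr13:119690101-119690350, plus strand) is shown because it is the gene with that element, here with 3 NF-Y boxes. Idi1 (chr13:8885356-8885605, plus strand, 2 NF-Y boxes) and Insig2 (chr1:121332590-121332839, minus strand, 3 NF-Y boxes) are shown because they had the smallest p of the 34 genes in the F test over the 4 states (0.0078 and 0.0059, unadjusted). Scap (chr9:110333038-110333287, plus strand) is shown as a regulator without either motif in these bases.
Hmgcs1: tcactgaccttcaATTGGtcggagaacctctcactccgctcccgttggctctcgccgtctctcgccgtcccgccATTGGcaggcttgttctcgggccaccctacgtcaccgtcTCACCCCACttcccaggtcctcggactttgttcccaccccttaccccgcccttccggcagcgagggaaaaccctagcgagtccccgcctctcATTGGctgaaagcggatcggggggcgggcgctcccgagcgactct
Idi1: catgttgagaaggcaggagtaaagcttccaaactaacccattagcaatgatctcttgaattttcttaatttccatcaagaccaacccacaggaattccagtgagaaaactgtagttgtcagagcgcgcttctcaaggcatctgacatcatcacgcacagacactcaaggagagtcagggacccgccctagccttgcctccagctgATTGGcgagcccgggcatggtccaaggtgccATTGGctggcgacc
Insig2: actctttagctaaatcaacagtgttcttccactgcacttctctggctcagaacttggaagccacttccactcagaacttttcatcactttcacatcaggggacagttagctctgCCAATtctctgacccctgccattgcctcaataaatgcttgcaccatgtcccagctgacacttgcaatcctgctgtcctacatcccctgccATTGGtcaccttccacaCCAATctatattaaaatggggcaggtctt
Scap: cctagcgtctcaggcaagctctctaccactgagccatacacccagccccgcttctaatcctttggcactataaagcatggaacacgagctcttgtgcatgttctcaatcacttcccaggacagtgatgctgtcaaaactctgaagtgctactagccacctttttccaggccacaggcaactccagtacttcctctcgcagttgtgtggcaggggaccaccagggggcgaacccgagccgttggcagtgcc

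The GF GeneChips stood apart from the other 6 in several genes outside lipid synthesis. The Y-linked gene Eif2s3y had signals of 71 and 614 in GF and 3201 to 5657 on the colonized GeneChips. Signals of Xist, which coats the inactive X chromosome, were 17157 and 22762 in GF and 3753 to 11176 on the others. The GF libraries thus went against the male sex given for the study's mice in both genes. On the colonized GeneChips, where Eif2s3y was high, Xist was also above 583.1, the median of the table. Fabp6, a bile acid carrier of ileal cells, had 68029 and 95108 in GF and 1179 to 1798 on the others. For the control transcript Gapdh the 3' signal exceeded the 5' signal 5.66 and 7.26 times in GF and 8.93 to 17.6 times on the others, whereas for Actb it was 36.9 and 38.8 times in GF and 21.4 to 36.3 times on the others. Each comparison with GF below rests on these 2 GeneChips, the 3 comparisons share them, and the part of these differences in the results was not tested. All 9 epithelial markers exceeded the median on all 8 GeneChips.

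No gene of cholesterol or fatty acid synthesis passed the test in any comparison. In limma's fit over all 24865 probe sets, with Benjamini-Hochberg adjustment and a threshold of 0.05, 0 of the 34 genes were called in Bt against GF, where 0.224% of all 12937 genes were called. The counts were also 0 in Bl against GF (0.178% of all genes) and in Bt/Bl against GF (0.286%). Between colonized states they were 0 in Bt/Bl against Bt (0.085%), in Bt/Bl against Bl (0.085%) and in Bl against Bt (0.0541%), and 0 in the F test over the 4 states (0.425%). By the brightest probe sets and an unadjusted p under 0.05 in limma, 4 genes were lower and 0 higher in Bt than in GF (4.27% and 4.7% of all genes). In Bl 5 were lower and 3 higher (5.61% and 5.43%), and in Bt/Bl 4 were lower and 2 higher (3.49% and 4.02%). In Bt/Bl against Bt 0 were lower and 2 higher (5.22% and 4.97%), in Bt/Bl against Bl 1 was lower and 2 higher (5.64% and 5.7%), and in Bl against Bt 2 were lower and 0 higher (5.5% and 5.25%). The F test listed 6 genes (Scap, Insig2, Idi1, Stard4, Elovl5 and Scd2), which is 17.6% of the 34 compared with 12.9% of all genes. The smallest adjusted p was 0.165, for Idi1 in Bl against GF. The study's criterion of an increase above 2-fold by the lower 90% bound was also met by 0 of the 34 genes in Bt, Bl and Bt/Bl, against 2.33%, 3.16% and 1.07% of all genes.

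A miss of the threshold does not show that signals were equal, since the intervals were wide. The 95% interval of a log2 fold change reached a median of 0.74 to either side. It lay wholly within 1 log2 unit of 0 for 12 of the 34 genes in Bt against GF, for 12 in Bl against GF and for 11 in Bt/Bl against GF. The genes of these pathways were measured with less spread than most, with a median SD between duplicates of 0.36 log2 units compared with 0.58 over all genes. They were also brighter, with a median signal of 5160 compared with 1393 over all genes, and the part of brightness in the spread was not tested.

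**Figure D1:**
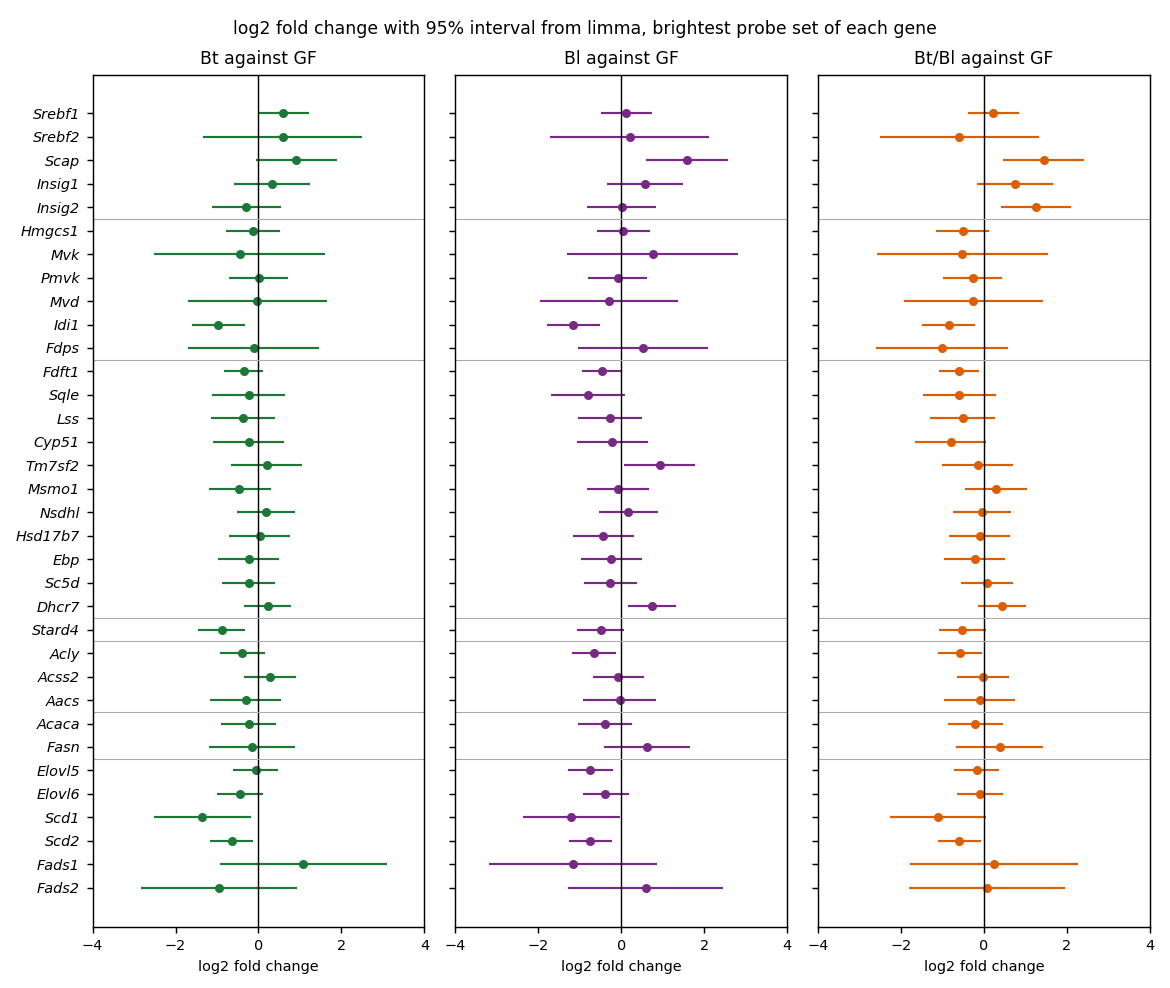
log2 fold change (horizontal axis) of the 34 genes in Bt, Bl and Bt/Bl against GF, with 95% intervals from limma; grey lines separate the groups by role in the order of the text. Most points lie left of 0, while Scap lies to the right in each panel, and no gene passed the adjusted threshold.

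Below that threshold, signals were more often lower than higher in the colonized pools. Against GF, 23 of the 34 genes were lower by log2 fold change with Bt, 21 with Bl and 24 with both species, compared with 49.6%, 49.9% and 49.8% of all genes. The median log2 fold changes of the 34 genes were -0.23, -0.15 and -0.19 in that order, where the medians of all genes were 0.01, 0.00 and 0.00. With the filter at the 75th percentile of all values, which keeps brighter probe sets, the medians of all genes were -0.04, -0.10 and -0.01. Those of the lipid genes kept by it were -0.23, -0.21 and -0.17. Fewer cells of a kind and less RNA per cell cannot be told apart in such pooled tissue. With each GeneChip scaled to the same median signal, the medians of all genes moved to -0.21, -0.36 and -0.05, and those of the 34 genes differed from them by -0.24, -0.13 and -0.19. With quantile normalization that difference was -0.14, -0.06 and -0.18, and 22, 19 and 24 genes were lower (52.1%, 53.7% and 50.2% of all genes). Averaging all tested probe sets of a gene in place of the brightest brought the medians to -0.02 in Bt and 0.01 in Bl, so the shift in these 2 comparisons rested on the brightest probe sets.

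Counts of genes whose duplicates did not overlap with those of GF went the same way. In Bt/Bl both GeneChips lay below both GF GeneChips for 14 of the 34 genes (41.2%), compared with 20% of all genes. In Bl this held for 10 genes (29.4%, against 18.3% of all genes), and in Bt for 8 genes (23.5%, against 18.5%). Both GeneChips lay above those of GF for 3 genes in Bt (20.9% of all genes), 4 in Bl (21.7%) and 4 in Bt/Bl (21%), which is a lower share than among all genes each time. These counts moved with the scaling. With each GeneChip scaled to the same median, 14 genes were lower in Bt (25.3% of all genes), 13 in Bl (30.7%) and 14 in Bt/Bl (21.3%), and 1, 2 and 4 were higher (13.2%, 12.2% and 17.2%). At a common 75th percentile 12, 13 and 12 were lower (24.3%, 26.8% and 21.3%). With quantile normalization 9, 8 and 15 were lower (20.6%, 20.8% and 21.3% of all genes), and 6, 4 and 4 were higher (18.8%, 18.2% and 21%). The 8 genes in Bl, 23.5% of the 34, were then close to the share of all genes. GF had the highest mean of the 4 states in 15 genes (44.1%, against 22.5% of all genes). It had the lowest mean in 4 genes (11.8%, against 23.9%), namely Srebf1, Scap, Insig1 and Dhcr7.

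**Figure D2:**
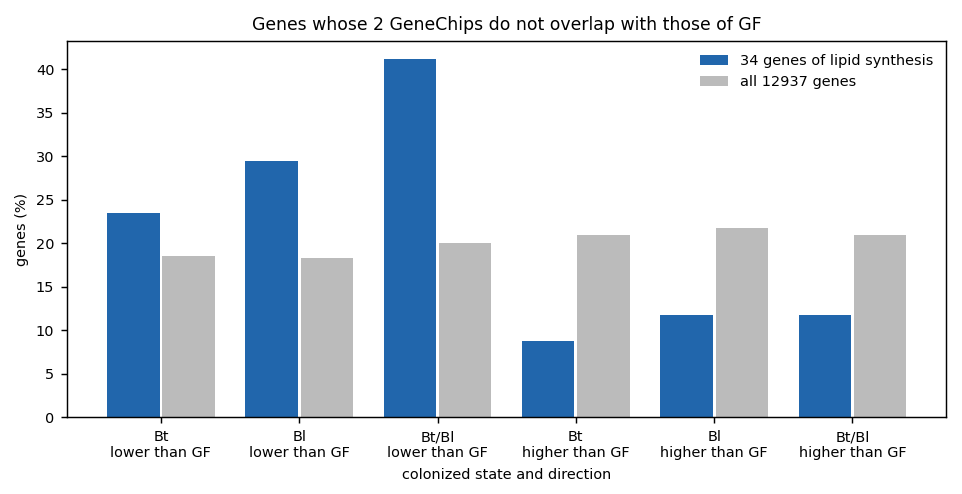
Share of genes (vertical axis, %) whose 2 GeneChips of a colonized state both lay below (left) or above (right) both GF GeneChips, for the 34 genes of lipid synthesis (blue) and all 12937 genes (grey). The blue bar exceeds the grey bar in the 3 pairs for lower signals, with 41.2% against 20% in Bt/Bl, and falls short of it in the 3 pairs for higher signals.

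In 5 genes both GF GeneChips lay above all 6 others: Idi1, Fdft1, Stard4, Scd1 and Scd2 (14.7% of the 34, compared with 4.41% of all genes). In 0 of the 34 genes did both lie below (3.86% of all genes). With the GeneChips scaled to the same median, 8 genes lay above the others (Lss, Acly and Acaca in addition), against 7.05% of all genes. Quantile normalization left the same 5 above (5.2% of all genes) and placed 1 gene, Dhcr7, below.

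**Figure D3:**
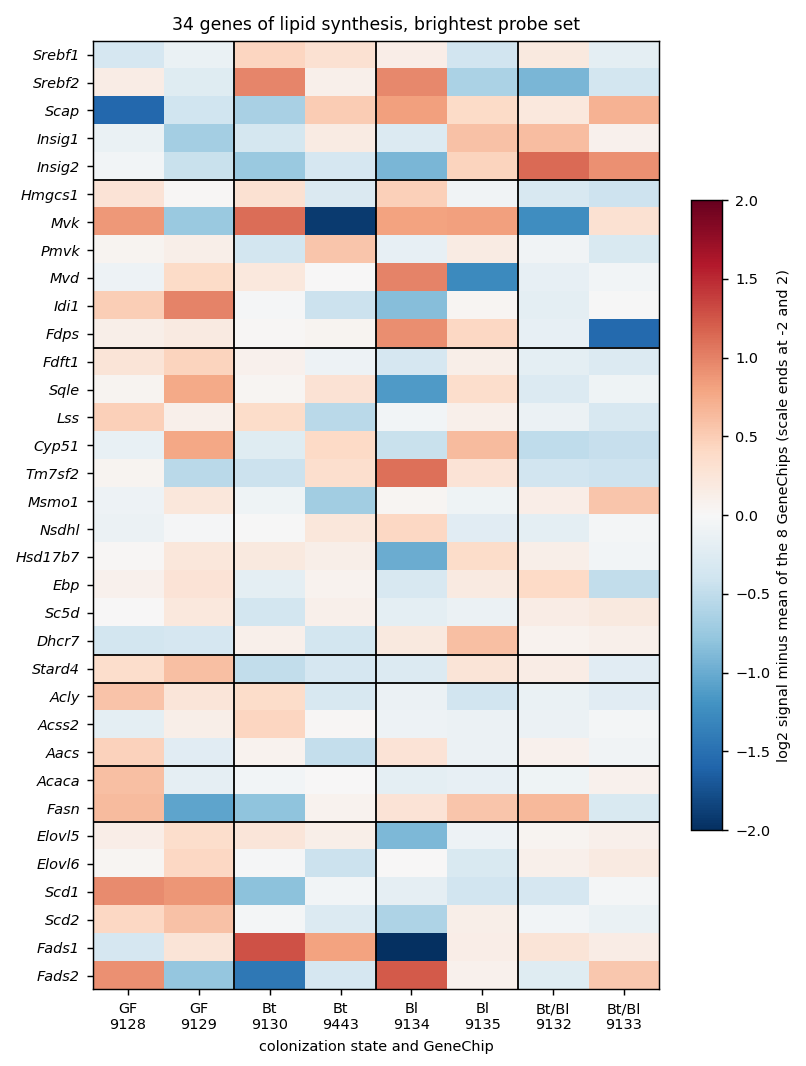
Deviation of the log2 signal from the mean of the 8 GeneChips (colour, red higher and blue lower, ending at -2 and 2) for the 34 genes (vertical axis, black lines between roles) on each GeneChip (horizontal axis, labelled by state and GeneChip number). Red cells gather in the GF columns for Idi1, Stard4, Scd1 and Scd2 and in the Bt/Bl columns for Insig2, and the 2 GeneChips of a state often differ, as for Mvk, Mvd and Fads1.

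The medians of the regulators were above 0, unlike those of the 34 genes. Their median log2 fold changes from GF in Bt, Bl and Bt/Bl were 0.58, 0.21 and 0.76, and Scap showed the largest differences from GF among them. Scap, the escort of the SREBPs, had signals of 1165 and 2629 in GF, 2206 and 4916 with Bt, 6119 and 4512 with Bl, and 4012 and 5594 with both species. Its GF values overlapped with those of Bt and lay below all values of Bl and Bt/Bl. The log2 fold change was 1.59 in Bl (SE 0.46, adjusted p = 0.206 from limma) and 1.44 in Bt/Bl (SE 0.46, adjusted p = 0.446). Leaving out single GeneChips moved the value in Bl between 1.0 and 2.17. Without GF GeneChip 9129, Scap met the study's criterion in Bl and in Bt/Bl.

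Insig2, which retains Scap in the endoplasmic reticulum, had its highest signals in Bt/Bl. Its brightest probe set had 4724 and 3583 in GF, 2922 and 3853 with Bt, 2584 and 6652 with Bl, and 10642 and 9134 with both species. Both Bt/Bl values lay above the 6 others, a pattern seen for 1 of the 34 genes (2.94%) and 5.07% of all genes. The log2 fold change was 1.56 against Bt (SE 0.39, adjusted p = 0.192), 1.25 against Bl (SE 0.39, adjusted p = 0.233) and 1.26 against GF (SE 0.39, adjusted p = 0.431). When only the 4 GeneChips of Bt/Bl and Bt were fitted, the first had an adjusted p of 0.0338, in a fit that called 807 probe sets of the whole table where the fit of all 8 called 12. Of the other probe sets of Insig2, one again placed both Bt/Bl values (6599 and 6247) above the rest (1625 to 5297). The other one did not, with 5912 and 4150 in Bt/Bl and 2212 to 5168 on the other GeneChips.

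Insig1, the partner of Insig2 that SREBPs induce, had 2619 and 1803 in GF, 2258 and 3242 with Bt, 2389 and 4336 with Bl, and 4417 and 3051 with both species. Neighbouring states in the order of the means overlapped, and Bt/Bl lay above GF with a log2 fold change of 0.76 (SE 0.43, adjusted p = 0.78). Srebf1, which encodes the SREBPs that mainly drive fatty acid genes, had 4888 and 5609 in GF, 8305 and 7609 with Bt, 6823 and 4757 with Bl, and 7027 and 5372 with both species. Bt stood above the other states without overlap, with a log2 fold change against GF of 0.60 (SE 0.29, adjusted p = 0.538). Srebf2, which encodes the SREBP that mainly drives sterol genes, was close to the median of the table. Its signals were 914 and 692 in GF, 1611 and 883 with Bt, 1599 and 526 with Bl, and 436 and 634 with both species. The lowest mean was in Bt/Bl, at -1.18 against Bt (SE 0.90, adjusted p = 0.696), an SE that allows either direction. The dimmer tested probe set of Srebf2 was also lowest in Bt/Bl, with 56 and 306, below all other values (587 to 1621). It was at -2.67 against Bt, -2.44 against Bl and -2.15 against GF (SE 0.94 each, adjusted p = 0.327, 0.315 and 0.624 from limma). The value of 56 was below the floor to which signals were raised, so these fold changes depend on that floor.

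**Figure D4:**
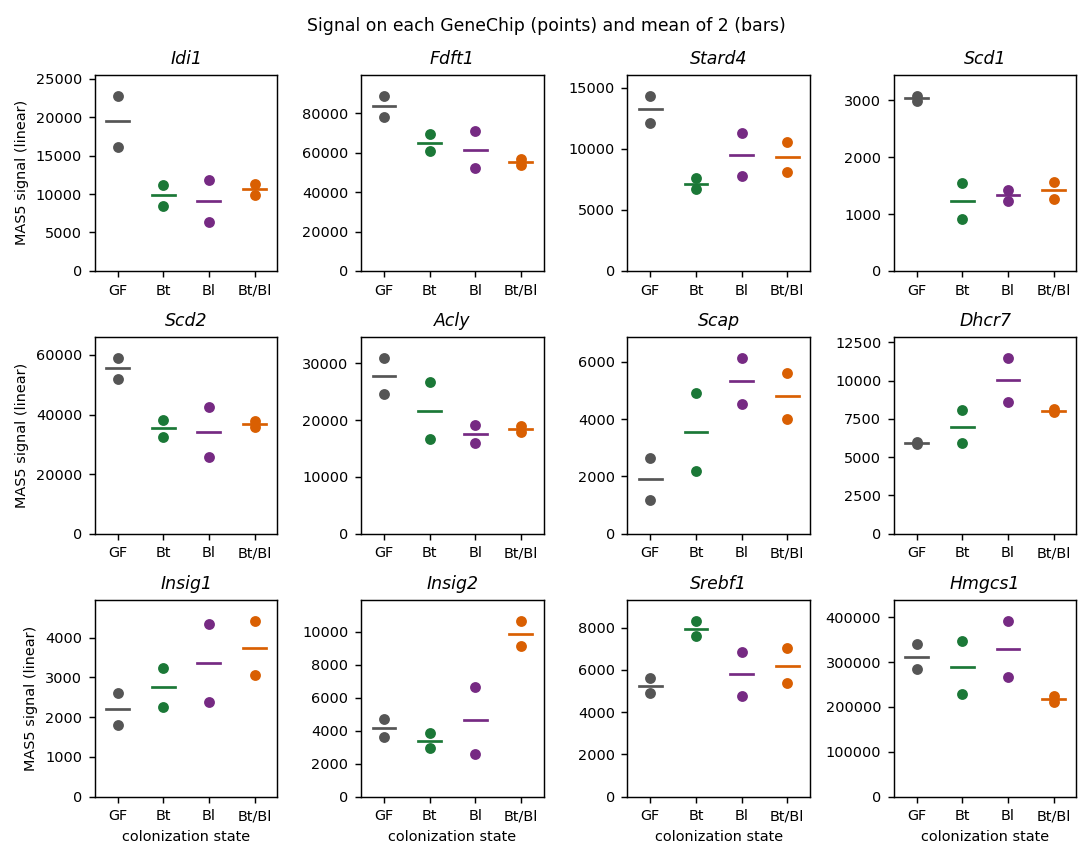
MAS5 signal on a linear scale (vertical axes, from 0, different for each gene) of 12 genes in the 4 colonization states (horizontal axes); points are the 2 GeneChips of a state and bars their mean. GF lies above the other states in Idi1, Fdft1, Stard4, Scd1 and Scd2, Bt/Bl lies above them in Insig2, and Bt/Bl lies below them in Hmgcs1.

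The 6 measured enzymes from acetoacetyl-CoA to farnesyl diphosphate were all lower in Bt/Bl than in GF, with a median log2 fold change of -0.52 and a range from -1.01 to -0.25, and none passed the test. The medians in Bt and Bl were -0.13 and -0.01. Hmgcs1, which makes the HMG-CoA that enters the mevalonate pathway, had 339677 and 285433 in GF, 347785 and 229996 with Bt, 391474 and 266991 with Bl, and 224654 and 211873 with both species. Both Bt/Bl values lay below the 6 others, which held for 3 of the 34 genes (Hmgcs1, Fdps and Cyp51, 8.82%) and for 4.55% of all genes. The log2 fold change was -0.51 against GF (SE 0.30, adjusted p = 0.796) and -0.57 against Bl (SE 0.30, adjusted p = 0.495). The other 3 tested probe sets of Hmgcs1 did not place Bt/Bl lowest on both GeneChips, and with the mean over the 4 probe sets the difference from Bl turned to 0.71 (adjusted p = 0.261).

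Idi1, the isomerase that yields dimethylallyl diphosphate, was below GF in each colonized state without passing the test. Its signals were 16061 and 22798 in GF, 11234 and 8484 with Bt, 6363 and 11759 with Bl, and 9931 and 11359 with both species. The colonized states overlapped with each other and lay below both GF values. The log2 fold changes from GF in Bt, Bl and Bt/Bl were -0.97, -1.15 and -0.85 (SE 0.30 each, adjusted p = 0.292, 0.165 and 0.51). A second probe set of Idi1 followed, with 11522 and 14657 in GF and between 6430 and 11458 elsewhere. Without Bl GeneChip 9135 the difference in Bl was -1.59 and passed the test (adjusted p = 0.0378) in a fit that called 714 probe sets in place of 34, and in no other fit that left out 1 GeneChip did it pass.

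Both Bt/Bl GeneChips also lay below all others for Fdps, the synthase of farnesyl diphosphate, with 988 and 378 compared with 1204 and 1259 in GF, 1123 and 1152 in Bt, and 2117 and 1491 in Bl. For Mvk, Pmvk and Mvd, the kinases and the decarboxylase of the mevalonate pathway, GF overlapped with each colonized state except that Pmvk was lower in Bt/Bl. Duplicates of Mvk differed as widely as 2466 and 298 in Bt, and no order of the states can be read from them.

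Of the 11 enzymes that turn farnesyl diphosphate into squalene and sterols, 8 had a lower mean log2 signal in Bt/Bl than in GF and 8 in Bl, with medians of -0.15 and -0.24, and 7 in Bt, with a median of -0.23. Fdft1, the squalene synthase at the branch point to sterols, had 78166 and 89047 in GF, 69307 and 60999 with Bt, 52031 and 71124 with Bl, and 57082 and 53764 with both species. All colonized values lay below GF, by -0.36, -0.46 and -0.59 on the log2 scale (SE 0.23 each, adjusted p = 0.672, 0.456 and 0.54). This probe set carries the suffix _x_at, given to probe sets whose probes may bind other transcripts. A dimmer one without that suffix had 2529 and 2235 in GF and between 1444 and 2813 elsewhere, with overlap in Bl and Bt/Bl. The remaining tested probe set, again of the _x_at kind and near the median of the table, did not follow. It had 737 and 468 in GF, 1417 and 935 with Bt, 1133 and 888 with Bl, and 177 and 919 with both species. Bt and Bl lay above GF there.

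Sqle, the squalene epoxidase and a rate-limiting enzyme of sterol synthesis, had 5180 and 8473 in GF, 5158 and 6119 with Bt, 2284 and 6363 with Bl, and 4133 and 4702 with both species. Only Bt/Bl was separate from GF, at -0.59 (SE 0.41, adjusted p = 0.854). The difference of Bl from GF, -0.80 (SE 0.41, adjusted p = 0.485), rested on GeneChip 9134 and was -0.06 in the smallest of the fits that left out 1 GeneChip. Cyp51, the lanosterol demethylase, had 3540 and 3646 in Bt/Bl, below all other values (between 3692 and 8592). The log2 fold change against GF was -0.80 (SE 0.40, adjusted p = 0.723 from limma). Its dimmer tested probe sets did not follow. One overlapped, with 1361 and 2174 in Bt/Bl and 1762 and 3397 in GF. The other had 1586 and 605 in Bt/Bl, above 478 and 509 in GF, and passed the filter only through Bt/Bl. Lss, which closes the sterol rings, had 5270 and 4089 in GF and lay below it in Bl (3641 and 4080) and Bt/Bl (3508 and 3048).

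Dhcr7, the last reductase on the way to cholesterol, ran against the group. Its signals were 5841 and 6016 in GF, 8094 and 5894 with Bt, 8596 and 11445 with Bl, and 7962 and 8114 with both species. Both Bl values lay above the other 6, and the log2 fold change against GF was 0.74 in Bl (SE 0.27, adjusted p = 0.289) and 0.44 in Bt/Bl (SE 0.27, adjusted p = 0.815). Tm7sf2, a sterol reductase of an earlier step, had 3536 and 2357 in GF, 2545 and 4320 with Bt, 7317 and 4138 with Bl, and 2636 and 2569 with both species. It was separate from GF in Bl alone (log2 fold change 0.93, SE 0.41, adjusted p = 0.386) and lower in Bt/Bl than in Bl by -1.08 (SE 0.41, adjusted p = 0.303). In Msmo1, Nsdhl, Hsd17b7, Ebp and Sc5d, which remove methyl groups from the sterol ring or move and add double bonds, the means of the states differed by 0.74 log2 units or less. Among these 5, the duplicates were apart from GF for Nsdhl (higher) and Ebp (lower) in Bt and for Sc5d (lower) in Bl.

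Msmo1 was also measured on the custom GlycoGeneChip, where it had 4972 and 7113 in GF, 5084 and 4366 with Bt, 2644 and 3194 with Bl, and 3696 and 6277 with both species. Bl lay below all other states there, at -1.03 against GF (SE 0.44, adjusted p = 0.306). On the Mouse 430 2.0 GeneChip the values were 3611 and 4543 in GF and 3992 and 3681 in Bl, which overlapped, so the platforms did not give the same picture for this gene.

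Stard4, which carries cholesterol between membranes in the cytosol and is itself a target of SREBPs, had 12147 and 14365 in GF, 6704 and 7585 with Bt, 7806 and 11269 with Bl, and 10536 and 8106 with both species. Both GF values lay above the others, and both Bt values below them. The log2 fold change in Bt was -0.89 (SE 0.26, adjusted p = 0.278), the smallest adjusted p of the 34 genes in that comparison. In Bl and Bt/Bl it was -0.49 and -0.52 (SE 0.26 each, adjusted p = 0.500 and 0.73). The 2 dimmer probe sets of Stard4 overlapped between GF and Bt.

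Acly, which cleaves citrate into cytosolic acetyl-CoA for both pathways, had 30870 and 24625 in GF, 26756 and 16607 with Bt, 19108 and 15909 with Bl, and 19039 and 17869 with both species. GF was separate from Bl (log2 fold change -0.66, SE 0.25, adjusted p = 0.311) and from Bt/Bl (-0.58, SE 0.25, adjusted p = 0.62), and overlapped with Bt. This is again an _x_at probe set. A dimmer one without that suffix had 2783 and 2250 in GF, was lower in Bl (1743 and 2150) and overlapped in Bt/Bl (2271 and 1621). Another pointed the other way, with log2 fold changes from GF of 1.04, 0.47 and 0.77 in Bt, Bl and Bt/Bl. The remaining tested ones were at -1.17 and -1.05 in Bl, each with a Bl value of 150 or less, and at -0.05 and -0.16 in Bt/Bl. For Acss2 and Aacs, which activate acetate and acetoacetate, GF overlapped with every colonized state.

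The committed enzymes of fatty acid synthesis overlapped with GF in each colonized state. Acaca, the acetyl-CoA carboxylase, had 8422 and 4894 in GF, 5311 and 5565 with Bt, 4828 and 4944 with Bl, and 5256 and 5886 with both species. Both Bl values lay below those of Bt and Bt/Bl. The difference of Bl from GF, -0.39 (SE 0.31, adjusted p = 0.656), was 0.00 in 1 of the fits without a GeneChip and 0.39 with the mean of its 2 probe sets. Fasn, the fatty acid synthase, had 7302 and 2247 in GF, 2691 and 4932 with Bt, 5635 and 6858 with Bl, and 7342 and 3785 with both species. The GF duplicates spanned nearly the whole range of the 8 values. Both Bl values lay above those of Bt, and this was its largest difference (log2 fold change 0.77, SE 0.49, adjusted p = 0.569).

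Among the elongases and desaturases, 5 of 6 were lower than GF in Bt and in Bl, with medians of -0.55 and -0.74, and 4 of 6 in Bt/Bl, with a median of -0.13. The stearoyl-CoA desaturases place the first double bond in saturated fatty acids. Scd1 had 3082 and 2991 in GF, 911 and 1545 with Bt, 1426 and 1233 with Bl, and 1269 and 1571 with both species. Its duplicates in GF were close, and all 6 colonized values were lower. The log2 fold changes in Bt, Bl and Bt/Bl were -1.36, -1.20 and -1.10 (SE 0.55 each, adjusted p = 0.422, 0.415 and 0.708). The second probe set of Scd1 had 1389 and 976 in GF and 538 and 53 in Bt, and overlapped with GF in Bl and Bt/Bl.

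Scd2, the isoform that accounts for desaturation in many tissues other than the liver, had 52073 and 58833 in GF, 38116 and 32528 with Bt, 25669 and 42499 with Bl, and 37960 and 35699 with both species. The colonized states overlapped with each other and lay below GF by -0.65, -0.74 and -0.59 on the log2 scale (SE 0.24 each, adjusted p = 0.38, 0.244 and 0.594). A dim probe set of Scd2 did not follow. It had 268 and 152 in GF and 190 and 132 in Bt, but 1538 and 702 with Bl and 852 and 1272 with both species, so that its signal was above the median of the table only where B. longum was present. It passed the filter only through those states, and one Bt value was below the floor of 144.7, so these signals are a description without a test.

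Elovl5, an elongase of polyunsaturated fatty acids, had 21369 and 24596 in GF, 22925 and 20911 with Bt, 10388 and 18066 with Bl, and 20077 and 20744 with both species. Both Bl values lay below the 6 others, with -0.74 against GF (SE 0.25, adjusted p = 0.263) and -0.68 against Bt (SE 0.25, adjusted p = 0.284). This probe set is of the _x_at kind, and the other one overlapped between Bl and GF. Elovl6, which extends saturated fatty acids, had 9153 and 11961 in GF and was lower without overlap in Bt (8799 and 6640) and in Bl (9004 and 7230). Fads1, the delta-5 desaturase, had 2116 and 1518 in Bt, above the 6 others, and 150 and 955 in Bl, with a log2 fold change of Bl against Bt of -2.24 (SE 0.95, adjusted p = 0.356). The other tested probe set of Fads1 had 839 and 995 in Bt and 1557 and 972 in Bl, which overlapped, with a log2 fold change of 0.43. Fads2, the delta-6 desaturase, had duplicates as far apart as 1814 and 562 in GF.

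Differences among the colonized pools do not involve the GF GeneChips. The median log2 fold change of the 34 genes was -0.08 in Bt/Bl against Bt, 0.03 in Bt/Bl against Bl and 0.01 in Bl against Bt. The duplicates of Bt/Bl lay below those of Bt for 13 genes (38.2%, against 22.2% of all genes) and above them for 6 (17.6%, against 21.5%). Against Bl, Bt/Bl was lower for 7 genes (21.7%) and higher for 7 (20%). Bl lay above Bt for 6 genes (18.1%) and below it for 5 (18.5%). Fitted without both GF GeneChips, an alternative added after the values were seen, these comparisons again called 0 of the 34 genes.

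Probe sets of the same gene often disagreed. Of the 20 genes with at least 2 tested probe sets, all of them pointed the same way in 8 genes for Bt against GF, in 8 for Bl and in 11 for Bt/Bl. Duplicates also differed by gene and state, and a ratio above 2 between the brighter and the dimmer GeneChip occurred in 4 genes in GF, 3 with Bt, 8 with Bl and 2 with both species. In Bl, GeneChip 9134 was the dimmer one for Idi1, Sqle, Insig2, Hsd17b7, Elovl5 and Scd2, not all with a ratio above 2. It was the brighter one for others, such as Srebf2 (1599 and 526), Mvd (2341 and 486) and Fads2 (2250 and 1023). Its median signal over the whole table, 759, was the highest of the 8 GeneChips.

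Around these pathways, a further list of 51 genes covered other sterol and isoprenoid enzymes, SREBP processing, sterol uptake, efflux and esterification, and the supply and handling of fatty acids. Of these genes 41 were found in the table and 36 were tested, and 1 was called, in 1 comparison. Me1, the malic enzyme that supplies NADPH for fatty acid synthesis, was higher in Bt than in GF by 1 of its probe sets, with a log2 fold change of 5.49 on the scale with a floor of 144.7 (SE 0.89, adjusted p = 0.0136). Its signals were 102 and 78 in GF, 5932 and 7082 with Bt, 1396 and 1276 with Bl, and 201 and 100 with both species. GF and one Bt/Bl GeneChip were thus below the floor, and the fold change depends on it. This probe set passed the filter only through Bt and Bl, where it was high, so its call is no test of Me1. The brightest probe set of Me1 had 1772 and 895 in GF and 1023 and 2392 in Bt, which overlapped (log2 fold change 0.31, adjusted p = 0.941).

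Summed signals of markers of other cell types and of proliferation differed between some pools and overlapped between others. A sum mostly reflects the brightest genes of its list. Examples are Igha (12171 to 113964) among the plasma and B cell markers and Fabp2 (505160 to 1026032) among the ileal ones. No fibroblast, smooth muscle or proliferation marker was called in any comparison. The summed signal of 6 fibroblast markers was between 24815 and 31278 in GF and between 10757 and 23311 in the colonized states. That of 5 plasma and B cell markers was between 109859 and 126810 in GF and between 14792 and 58494 elsewhere. Of 7 adipocyte markers, a cell type rich in Scd1, Fasn and Acly, 5 were in the table. Of these, 3 were tested, and the defining markers Adipoq and Lep did not pass the filter. Retn, 1 of the 3, had 892 and 1380 in GF, 108 and 320 with Bt, 212 and 184 with Bl, and 181 and 209 with both species. It passed the filter only through GF, so these signals are a description without a test. Fabp4 overlapped with GF in Bt and Bt/Bl and was lower in Bl, and Cidec overlapped in each state. The adipocyte sum was between 2754 and 4925 in GF, 2603 and 3536 with Bt, 2084 and 2277 with Bl, and 1923 and 3104 with both species. The 6 ileal enterocyte markers summed to between 638124 and 756262 in GF and between 601742 and 1034900 elsewhere, with Fabp6 and Apoa1 called lower in each colonized state. The sum of 5 proliferation markers was between 21519 and 23816 in GF, 24125 and 25791 with Bt, 20891 and 32714 with Bl, and 31000 and 44886 with both species. That of 5 smooth muscle markers was between 5916 and 6501 in GF, 8955 and 15101 with Bt, 5854 and 6724 with Bl, and 5014 and 5656 with both species. The part of these differences in the signals of the lipid genes was not tested.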

How the data were processed

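Laser-captured cecal epithelium was hybridized to 8 Mouse 430 2.0 GeneChips, 2 for each of 4 colonization states. The deposited values are linear signal intensities per probe set, computed by the authors with MAS5, with a trimmed mean of 1500 on each GeneChip. Detection calls were not used here, and the study's own analysis with dChip was not repeated. The Mouse 430 2.0 and GlycoGeneChip tables were fitted separately.

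Probe sets were named from the platform annotation with symbols updated through the gene ID: 34945 had 1 symbol, 932 several and 9160 none. One probe set shared by Acss2 and another gene was left out, as were 64 control probe sets. Signals were raised to a floor of 144.7, the 25th percentile of all values, before log2 was taken. The filter asked for both GeneChips of a state above the median, 583.1, in any state. All 8 GeneChips entered 1 fit in limma 3.58.1 (R 4.3.3), by lmFit and then eBayes with a trend in intensity, with 4 residual degrees of freedom, and the Benjamini-Hochberg adjustment ran over all 24865 kept probe sets. Depth does not apply to these intensities, and the 2 GeneChips a state limit the precision.

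The genes and lists were chosen with earlier results of these data known. Values on each GeneChip are given for the regulators, for Hmgcs1, Sqle, Fdft1, Acly, Acaca, Fasn and Scd1, and for the 10 genes with the smallest p in the F test. Other genes of the group were named after their values were seen. The fit was tested on simulated data, where it made more false calls than its threshold allows, a limit on each single call given here. Alternatives changed the scaling, the floor, the filter, the model of the spread, the probe sets or the samples, and each GeneChip was left out in turn.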

Additional observations from a re-analysis of the deposited data

How the results depend on the processing

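The 0 counts of called genes held under each scaling, floor, filter and model of the spread tried, and with other probe sets. Fits of only the GeneChips compared called 2 genes in Bt/Bl against Bt (Insig2, and Scd2 by its dim probe set). In Bl against Bt they called 1, Scd2 by the same dim probe set. That probe set passed the filter only through Bl and Bt/Bl, where it was high, so its calls are no test of Scd2. With all GeneChips the brightest probe set of Scd2 was at 0.06 and -0.09 in these comparisons. Over the whole table the 2 fits called 807 and 841 probe sets, compared with 12 and 11 in the fit of all GeneChips. Without an intensity trend 1 gene (Scd2, by its dim probe set) met the study's criterion in Bl and 1 (the same probe set) in Bt/Bl, a probe set that passed the filter only through these states. With each GeneChip scaled to the same median, the median log2 fold change of the 34 genes was -0.44 in Bt and -0.49 in Bl against GF, 0.07 in Bt/Bl against Bt, 0.33 in Bt/Bl against Bl and -0.13 in Bl against Bt. With the 75th percentile as the common value it was -0.42, -0.41, 0.06 and 0.25 in the first 4 of these comparisons, and quantile normalization gave -0.10 in Bt/Bl against Bl. The mean over all probe sets of a gene gave -0.02 in Bt and 0.01 in Bl against GF, and reversed Hmgcs1 in Bt/Bl against Bl (0.71) and Acaca in Bl against GF (0.39). Without _s_at and _x_at probe sets the median in Bt/Bl against Bt was 0.03. The cause of these changes was not tested, apart from scaling, which moved the medians of all genes too.

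Leaving out 1 GeneChip at a time, the called genes ranged from 0 to 5 in Bl against GF, 0 to 3 in Bt/Bl against Bl and 0 to 2 in Bl against Bt, and stayed at 0 otherwise. All of these calls came from the fit without Bl GeneChip 9135, which left GeneChip 9134 alone for Bl, assumed to vary like the other states. Hmgcs1 was listed there by a dimmer probe set, at -2.42 in Bl against GF and 2.22 in Bt/Bl against Bl. Its brightest probe set went the other way with all GeneChips, at 0.05 and -0.57. Against GF the genes called without GeneChip 9135 were Scd2, Idi1, Hmgcs1, Elovl5 and Hsd17b7. They were Insig2, Hmgcs1 and Elovl5 in Bt/Bl against Bl, and Elovl5 and Hsd17b7 in Bl against Bt. That fit called 714 probe sets in Bl against GF, compared with 34 in the fit of all GeneChips. Medians ranged from -0.23 to -0.10 in Bt, -0.23 to -0.08 in Bl and -0.29 to -0.17 in Bt/Bl against GF, from -0.08 to -0.03 in Bt/Bl against Bt, -0.10 to 0.06 in Bt/Bl against Bl and -0.05 to 0.18 in Bl against Bt. By the study's criterion no gene was listed in Bt in these fits. In Bl, Scap met it without GF GeneChip 9129, and Scd2 met it without 9135 by its dim probe set (log2 fold change 2.93). In Bt/Bl, Scap met it without 9129. Without 9132, Scap and Msmo1 met it in Bt/Bl by probe sets that the filter otherwise removes. No paired analysis was possible because the labels number the GeneChips and give no replicate number shared between states.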

Other observations

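For each gene the difference of Bt/Bl from GF was compared with the differences of Bt and Bl from GF added together. The remainder was largest in relation to its error for Idi1, at 1.27 on the log2 scale (SE 0.42, adjusted p = 0.246 from limma). Insig2 came next, at 1.54 (SE 0.56, adjusted p = 0.283), and no gene passed the threshold. Where colonized states are alike and below GF, as for Idi1, the sum counts the distance from GF for each species and leaves a positive remainder. The remainder of Idi1 therefore cannot tell a difference of the GF pool from a joint effect of the 2 species.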
